A study of Mus musculus with 5 samples.

Results

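Toll-like receptors and Cd14 were described in bone marrow–derived macrophages (BMDMs) through 10 genes taken by symbol: Tlr1, Tlr2, Tlr3, Tlr4, Tlr5, Tlr6, Tlr8, Tlr9, Tlr13 and Cd14. All 10 were among the 17017 genes with a count in any library, and all 10 passed the filter on low counts that left 12576 genes for testing. The macrophages came from BALB/c mice (written Balb/c in the sample descriptions) and shared a culture for 48 hours with 4T1 cells, a mouse mammary carcinoma line from the same strain. The cancer cells were WT in 2 libraries and carried an ADAM17 knock-out, designated 2.8, in 3 libraries, called Adam17-/- cocultures here. ADAM17 is a membrane protease that sheds cytokines, receptors and EGFR ligands from the cell surface. The deletion lay in the cancer cells only, behind a porous membrane, and the macrophage RNA cannot be used to check it. The macrophages of both groups carried no engineered allele. The study made its knock-out cells as sorted single-cell clones, so loss of ADAM17 and any other trait of the 2.8 line cannot be told apart. The sample descriptions do not say whether repeats came from separate mice or cultures, and p-values therefore measure the spread between these libraries, which may be technical.

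Toll-like receptors (TLRs) are sensors of microbial molecules. TLR2, with TLR1 or TLR6, binds lipopeptides at the cell surface, TLR4 with its partner MD-2 binds lipopolysaccharide, and TLR5 binds flagellin. TLR3, TLR8, TLR9 and TLR13 sit in endosomes and sense nucleic acids. CD14 is a GPI-anchored coreceptor without a signaling domain of its own that hands lipopolysaccharide to TLR4 and lipopeptides to TLR2. Signals run through the adaptors MyD88 and TRIF to NF-κB, MAP kinases and interferon regulatory factors, and macrophages carry most of these receptors.

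Sequencing depth ranged from 14658694 to 20788373 estimated counts per library, and the 10 genes held between 221 and 12512 counts in a library, far above the level of 3 counts, which stood at 0.157 to 0.197 CPM. CPM values are counts scaled to a common library size with TMM factors, and FPKM, which also divide by transcript length, are used wherever levels of different genes are compared. Macrophage markers were abundant, with a summed level of 17605 to 27785 CPM over the 8 genes of the list, and 4T1 epithelial markers were at or near 0 apart from Cdh1, which made up nearly all of their summed 10.99 to 13.8 CPM (Krt5 at 0 in every library). The WT libraries lay farther from each other than the Adam17-/- libraries did, with a chi-square per degree of freedom of 25.7 against 5.22 to 6.32.

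A pair of the receptors, Tlr1 and Tlr6, shares coding sequence, which bears on how firmly their values can be read. Tlr1 lies at chr5:64924680-64933600 and Tlr6 at chr5:64953092-64970942, both on the minus strand of GRCm38, and each has its whole coding sequence in a single exon. An identical run of 229 bases stands in both coding exons, at chr5:64925537-64925765 in Tlr1 and at chr5:64953828-64954056 in Tlr6. It is the longest identical run of the pair. It is shown because a fragment that falls inside it can be given to either gene.

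Tlr1 and Tlr6: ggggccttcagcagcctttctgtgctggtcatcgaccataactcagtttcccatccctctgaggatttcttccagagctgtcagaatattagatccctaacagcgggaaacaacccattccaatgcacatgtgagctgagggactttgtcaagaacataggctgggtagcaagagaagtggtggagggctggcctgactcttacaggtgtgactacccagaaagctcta

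Of the 2236 windows of 150 bases along the Tlr1 coding sequence, 139 (6.22%) occur unchanged in Tlr6. These are more than the printed run can hold, so the pair shares other identical sequence as well. No other pair among the 9 receptors shares more than 16 coding bases in a row. The estimated counts, which are RSEM's expected counts, were not whole numbers for Tlr1 and Tlr6. Tlr6 has 1 listed transcript and still held 806.6 and 761.09 counts in the WT libraries. Some of its reads were therefore divided with another gene. How many reads of the pair were divided is not given in the sources used here. The values of both genes are thus less certain than those of the other receptors.

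Upstream sequence is shown for a pair of endosomal receptors that were lower in the Adam17-/- cocultures (below), Tlr9, which holds a searched motif, and Tlr13, which holds none. Each sequence comes from the RefSeq promoter table (GRCm38.p6), starts 250 bases before the start listed there on the strand of the gene, and stops before the gene as both RefSeq and GENCODE annotate it. Capitals mark an AP-1 motif (TGANTCA) in Tlr9, at bases 58 to 52 before the start.

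Tlr9, chr9:106222348-106222597, plus strand: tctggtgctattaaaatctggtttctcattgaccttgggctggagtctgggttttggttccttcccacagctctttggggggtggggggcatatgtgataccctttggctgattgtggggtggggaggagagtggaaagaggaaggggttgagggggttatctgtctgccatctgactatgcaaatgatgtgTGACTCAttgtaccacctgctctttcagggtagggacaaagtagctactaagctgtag

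Tlr13, chrX:106143025-106143203, plus strand: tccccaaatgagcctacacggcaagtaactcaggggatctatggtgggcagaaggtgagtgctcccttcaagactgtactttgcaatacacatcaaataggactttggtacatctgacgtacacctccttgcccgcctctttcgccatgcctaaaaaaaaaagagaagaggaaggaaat

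Motifs for 5 factors or factor families were searched on both strands of the 250-base windows of 8 of the 10 genes. No window of Tlr4 or Cd14 was searched. The κB consensus was in Tlr2 and Tlr3 and in 7.25% of all 32851 windows. The AP-1 motif was in Tlr9 alone and in 6.75% of all windows. A PU.1 motif (AGGAAGT) was in Tlr1 and Tlr6 (7.69% of all windows), a C/EBP motif (TTGCNNAA) in Tlr3, Tlr6 and Tlr8 (9.56%), and the ISRE consensus of interferon-response genes in Tlr6 (2.98%). Tlr1 and Tlr6 have 2 windows each, so they had more chance of a match than the other genes, and the percentages are per window. The matches of each gene were in 1 of its windows and the other window held none. The bases that follow the Tlr6 window with matches were not found in a GENCODE transcript of Tlr6. The windows of Tlr5 and Tlr13 held none of the motifs. A match is only a match of letters. The matches of Tlr1, Tlr2, Tlr3 and Tlr6 lay inside the span that RefSeq gives the gene, and those of Tlr8 and Tlr9 before it.

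Per length, the coreceptor stood above every receptor. Cd14 averaged 349 ± 33.8 FPKM (SD, n = 2) in WT cocultures and 266.0 ± 27.5 FPKM (SD, n = 3) in Adam17-/- cocultures. Tlr13, a receptor for bacterial ribosomal RNA, came next at 124 ± 12.1 and 94.4 ± 3.48 FPKM. Tlr2 followed at 103 ± 9.08 and 79.6 ± 10.1 FPKM. The levels of Tlr8 (61.8 ± 15.3 in WT), Tlr1 (50.8 ± 3.75) and Tlr4 (37.3 ± 14.2) in WT cocultures lay within their spread of the neighbouring gene in this order. In the Adam17-/- cocultures Tlr8 averaged 62.1 ± 3.86, Tlr1 54.5 ± 1.97 and Tlr4 39.7 ± 1.28 FPKM, and the neighbours there lay farther apart than their spread. Tlr13 lay above Tlr2, and Tlr1 above Tlr4, in every library. Tlr6 averaged 15.5 ± 0.233 FPKM in WT cocultures. The lowest levels were those of Tlr9 (8.27 ± 0.0919 FPKM), Tlr3 (7.09 ± 0.728) and Tlr5 (6.57 ± 1.17) in WT cocultures, and among them Tlr3 and Tlr5 did not differ beyond their spread. In the Adam17-/- cocultures Tlr3, at 9.56 ± 0.684 FPKM, stood above Tlr9, at 6.11 ± 0.813 FPKM, so this pair changed places. Summed over the 9 receptors, the level was 379 and 448 FPKM in WT and 361, 390 and 354 FPKM in Adam17-/- libraries, and the groups overlapped.

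**Figure D1:**
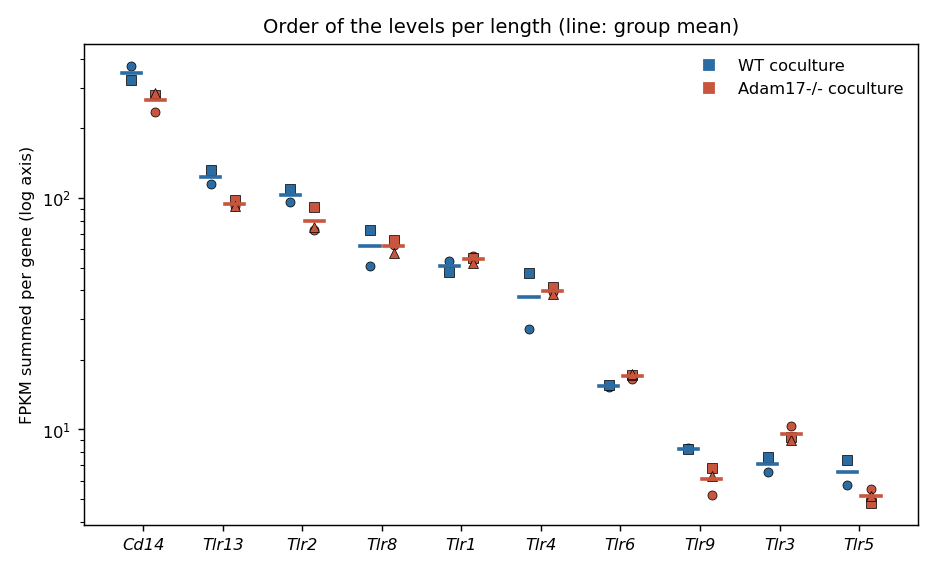
FPKM summed per gene on a log axis for each of the 10 genes, ordered by the WT mean. Circles, squares and triangles are replicates 1, 2 and 3 of each group and lines are group means. Cd14 stood highest in both groups, and Tlr9, Tlr3 and Tlr5 were lowest, with Tlr9 under Tlr3 in the Adam17-/- cocultures only.

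Of the 10 genes, 5 were lower and 0 higher in the Adam17-/- cocultures at an adjusted p of 0.05 or less (edgeR's quasi-likelihood test with Benjamini-Hochberg adjustment over all 12576 genes). Over all genes tested, 16.8% were lower and 14.9% higher by the same rule (31.7% either way). Those lower were Cd14, Tlr2, Tlr5, Tlr9 and Tlr13, of which Tlr5 fell by 28.5% and Tlr9 fell by 33.3%, the ends of the range. None of the 10 reached a log2 fold change of 1 in size, a limit that 0.867% of all genes passed downward and 3.36% upward. The median log2 fold change of the 10 genes was -0.31, beside 0.01 over all genes tested, and 9 of 10 lay below 0, as did 49.0% of all genes. With library totals as the only scaling, 4 of the 10 genes were lower and 1 was higher. Calls over all genes then turned from 2114 lower and 1869 higher to 1077 lower and 3019 higher. In that fit Tlr1 (0.0935), Tlr4 (0.0916) and Tlr6 (0.142) turned from below to above 0, and the median over all genes was 0.16. For 5 of the 10 genes all Adam17-/- values lay under both WT values (29.7% of all genes), and for 1 they lay over both (28.4% of all genes).

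Cd14 (Entrez 12475, chromosome 18) encodes the coreceptor of TLR4 and TLR2. It read 655 and 545 CPM in WT libraries and 361, 436 and 442 CPM in the Adam17-/- libraries. All 3 Adam17-/- values lay under both WT values. The log2 fold change was -0.54 ± 0.114 (SE; 95% interval -0.80 to -0.29; edgeR adjusted p = 0.0074).

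Tlr4 (chr4:66827551-66846581, plus strand, 3 exons), the receptor that CD14 serves, split the WT libraries. It stood at 232 and 386 CPM in WT cocultures and at 295, 311 and 292 CPM in Adam17-/- cocultures. The Adam17-/- libraries lay close together, between the WT values. The log2 fold change was -0.05 ± 0.170 (95% interval -0.43 to 0.33; edgeR adjusted p = 0.854). The WT libraries differed by 0.73 on the log2 scale, a gap that only 5.30% of the genes tested exceeded. Leaving out WT replicate 1 gave -0.37 (edgeR adjusted p = 0.0026) and leaving out WT replicate 2 gave 0.36 (edgeR adjusted p = 0.0024), so the direction for Tlr4 rests on which WT library is kept, with the lone WT library then assumed to vary like the others. The FPKM of Cd14 was 13.7 and 6.86 times that of Tlr4 in the WT libraries and 5.94, 6.82 and 7.35 times in the Adam17-/- libraries. WT replicate 1 alone stood apart in this ratio.

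Tlr2 (chr3:83836272-83841824, minus strand, coding sequence in 1 of 3 exons) encodes the shared partner of the lipopeptide receptors. It read 295 and 319 CPM in WT cocultures and 194, 247 and 204 CPM in Adam17-/- cocultures, with no overlap. The log2 fold change was -0.52 ± 0.108 (95% interval -0.76 to -0.27; edgeR adjusted p = 0.0074). Without Adam17-/- replicate 1 the log2 fold change was -0.43 (edgeR adjusted p = 0.0512).

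Tlr1 and Tlr6, the alternative partners of TLR2, did not pass the test. Tlr1 read 158 and 137 CPM in WT and 145, 144 and 137 CPM in Adam17-/- cocultures (log2 fold change -0.06, 95% interval -0.25 to 0.14; edgeR adjusted p = 0.660). Tlr6 read 42.2 and 41.2 CPM in WT and 39.95, 42.1 and 42.7 CPM in Adam17-/- cocultures (log2 fold change -0.0047, 95% interval -0.20 to 0.19; edgeR adjusted p = 0.972). Both groups overlapped for each gene, and the sign of both changes turned under other scalings. The Tlr2 to Tlr6 ratio of FPKM was 6.31 and 6.99 in WT libraries and 4.38, 5.29 and 4.31 in Adam17-/- libraries. The Tlr2 to Tlr1 ratio was 1.81 and 2.27 against 1.29, 1.65 and 1.44. All 3 Adam17-/- libraries lay below both WT libraries in each of these ratios, while the Tlr1 to Tlr6 ratio overlapped (3.49 and 3.08 against 3.39, 3.20 and 3.00). These pairs were set side by side after the values were seen, and no test was run on the ratios. Both ratios with Tlr2 follow from the fall of Tlr2 and add no separate result. Of the 2 Tlr1 transcripts listed, the one of 2721 bases held 73.9% ± 5.29 of the gene's counts in WT and 79.8% ± 1.02 in Adam17-/- cocultures.

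Tlr5 (chr1:182954752-182976044, plus strand), the flagellin receptor, had the fewest counts of the 10 genes. Its values were 19.6 and 24.1 CPM in WT cocultures and 16.5, 14.5 and 15.7 CPM in Adam17-/- cocultures, without overlap. The log2 fold change was -0.48 ± 0.122 (95% interval -0.76 to -0.21; edgeR adjusted p = 0.0159). This was the least firm of the 5 calls, since it held in 6 of 13 alternative analyses and the adjusted p passed 0.05 without any 1 of the Adam17-/- libraries. Without Adam17-/- replicates 1, 2 and 3 it came to -0.51, -0.42 and -0.47 on the log2 scale (edgeR adjusted p = 0.0554, 0.0816 and 0.0667). It moved more with the WT libraries, to -0.63 without WT replicate 1 and -0.33 without WT replicate 2 (edgeR adjusted p = 0.00144 and 0.0412). It was -0.34 with library totals only (edgeR adjusted p = 0.0764) and -0.29 in limma on log2(FPKM + 1) (adjusted p = 0.107). With the replicate number as a block it was -0.48 (edgeR adjusted p = 0.0512).

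**Figure D2:**
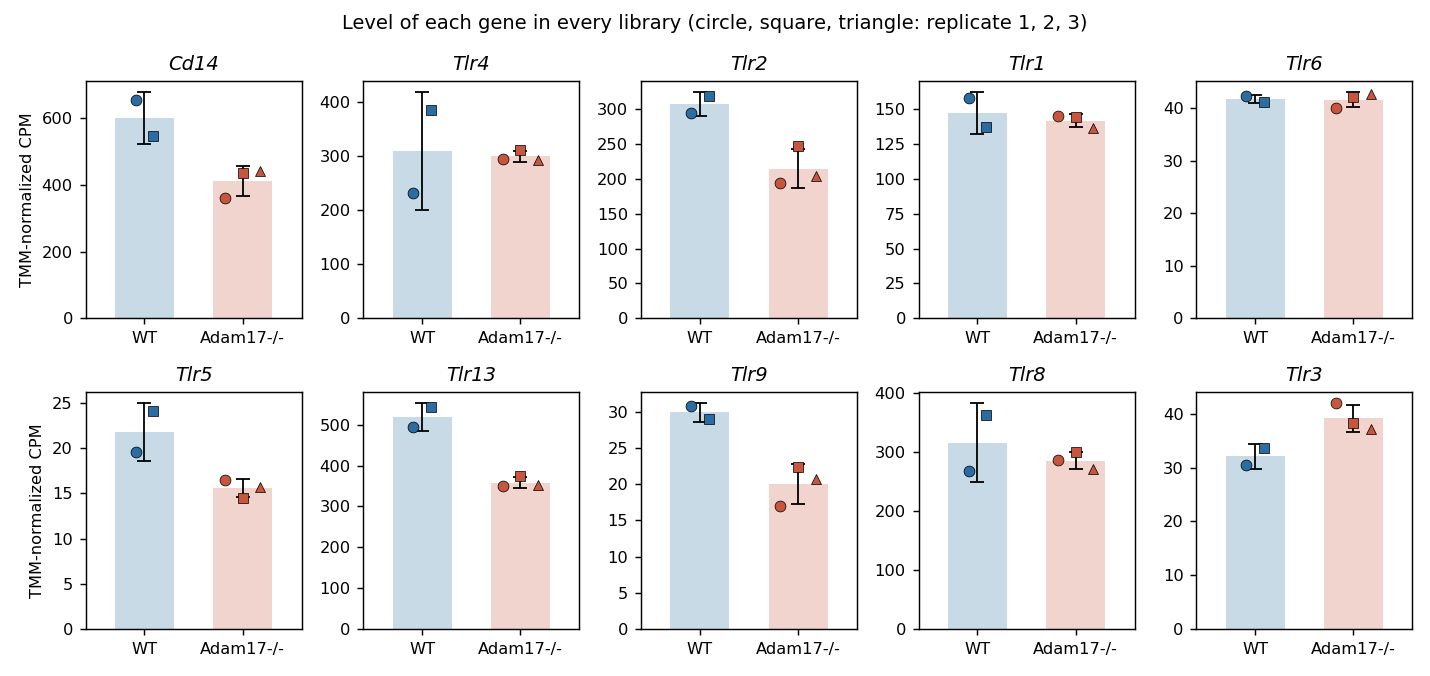
TMM-normalized CPM of each gene in every library, with linear axes from 0. Bars are group means, error bars are SDs (n = 2 WT, n = 3 Adam17-/-), and circles, squares and triangles are replicates 1, 2 and 3. For Cd14, Tlr2, Tlr5, Tlr9 and Tlr13 every Adam17-/- library lies under both WT libraries, for Tlr3 every one lies above, and for Tlr4 the WT libraries lie on either side of all 3 Adam17-/- libraries.

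Among the endosomal receptors, Tlr13 (chrX:106143275-106160493, plus strand) had the smallest adjusted p of the 10 genes. It read 495 and 543 CPM in WT and 349, 375 and 351 CPM in Adam17-/- cocultures. The groups stood well apart, with a log2 fold change of -0.53 ± 0.083 (95% interval -0.72 to -0.35; edgeR adjusted p = 0.0018).

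Tlr9 (chr9:106222598-106226876, plus strand, 2 exons), the receptor for unmethylated CpG DNA, read 30.9 and 29.1 CPM in WT and 17.0, 22.4 and 20.8 CPM in Adam17-/- cocultures. Its log2 fold change, -0.58 ± 0.124 (95% interval -0.86 to -0.31; edgeR adjusted p = 0.0076), was the most negative of the 10 point estimates, but the intervals of all 5 genes that fell overlapped. Tlr9, Tlr13 and Cd14 passed the threshold in all 13 alternative analyses, and Tlr2 in 12 of 13.

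Tlr8 (chrX:167241123-167264329, minus strand), a single-stranded RNA sensor, read 269 and 364 CPM in WT and 287, 300.2 and 271 CPM in Adam17-/- cocultures. All 3 Adam17-/- values fell between the WT values, as for Tlr4 (log2 fold change -0.15, 95% interval -0.42 to 0.13; edgeR adjusted p = 0.382). Without WT replicate 1 the log2 fold change was -0.35 (edgeR adjusted p = 0.0048), and without WT replicate 2 it was 0.09 (edgeR adjusted p = 0.410), again with the lone WT library assumed to vary like the others. The counts of Tlr8 were spread over 3 transcripts, of which the one of 4217 bases held 6.98% and 9.59% in WT libraries and 11.7%, 20.7% and 7.10% in Adam17-/- libraries, with overlap.

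Tlr3 (chr8:45395665-45411075, minus strand), which binds double-stranded RNA and signals through TRIF, was the one gene with a positive log2 fold change. It read 30.5 and 33.7 CPM in WT and 42.0, 38.3 and 37.2 CPM in Adam17-/- cocultures, and the groups did not overlap. The log2 fold change was 0.29 ± 0.099 (95% interval 0.07 to 0.51), with an edgeR adjusted p of 0.0510 (unadjusted 0.0162) that missed the threshold. It passed in 6 of 13 alternative analyses, which included scaling by library totals (0.43; edgeR adjusted p = 0.0151). A gene on the opposite strand, Gm45542, overlaps exons of Tlr3 in GENCODE, and the library protocol describes no step that marks strand, so reads of the pair cannot be told apart. In the other genes of the set no annotated neighbour shared exon bases.

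**Figure D3:**
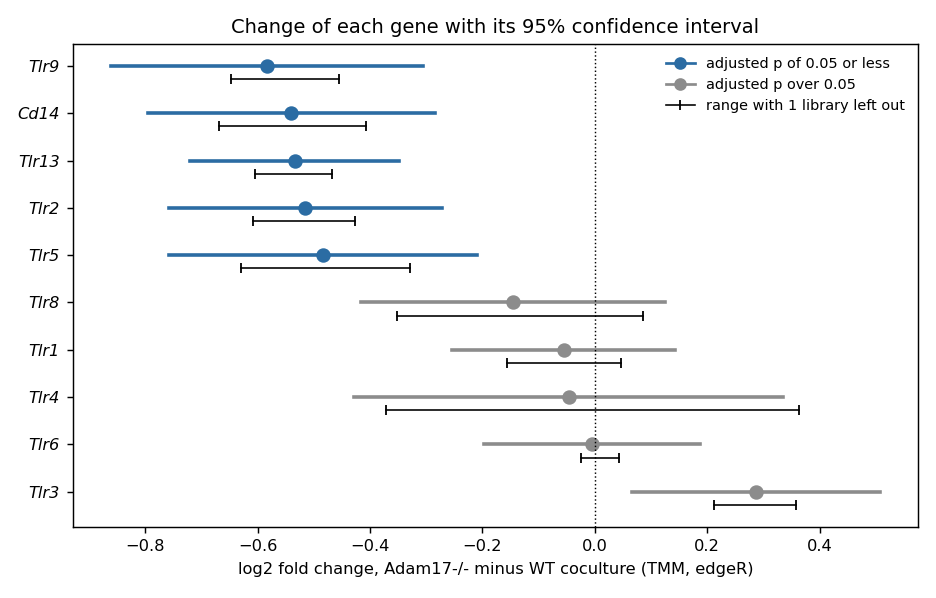
Log2 fold change (Adam17-/- minus WT coculture, edgeR) of each gene with its 95% confidence interval, blue where the adjusted p was 0.05 or less, and below it the range of the estimate when 1 library is left out. The 5 genes that fell keep their sign throughout, Tlr3 stays positive, and the leave-one-out range of Tlr4 runs from -0.37 to 0.36.

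Another 3 genes with a Toll-like receptor symbol had counts. Of these, 1 was tested and was lower, and the other two, with 2 to 9 counts, were not tested. The genes whose pattern over the 5 libraries was most like that of Tlr9, by Euclidean distance of centred log2 CPM, were Noa1 (0.0635), Jpt2 (0.0811) and Slc30a1 (0.0850), and those most like Cd14 were Psat1 (0.0563), Sil1 (0.0625) and Tm9sf4 (0.0669).

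Beyond the receptors, 5 lists held 80 genes of the pathway, of which 75 were tested, 23 were lower and 11 higher, and their median log2 fold change was -0.09 (0.01 over all genes). The counts of each list stand beside the 16.8% of all genes that were lower and the 14.9% that were higher. Without Adam17-/- replicate 1 they were 15 lower and 7 higher over the 5 lists. Of 14 genes that fold, carry or process the receptors, 8 were lower and 1 higher, with a median of -0.47. Unc93b1, which escorts endosomal receptors out of the endoplasmic reticulum, fell from 1475 ± 330 to 956 ± 43.1 CPM (log2 fold change -0.63, edgeR adjusted p = 0.0059). Hsp90b1 (gp96), a chaperone of most TLRs, fell from 827 ± 23.4 to 590.3 ± 35.7 CPM (-0.49, edgeR adjusted p = 0.0032), and its cochaperone Cnpy3 from 228 ± 25.3 to 165 ± 3.58 CPM (-0.46, edgeR adjusted p = 0.0049). The endosomal proteases Ctsb (-0.56), Ctsl (-0.51) and Lgmn (-0.59), which can cleave TLR ectodomains, fell as well (edgeR adjusted p = 0.010, 0.0080 and 0.0068). Ctsk rose from 8.79 ± 1.79 to 14.97 ± 3.10 CPM (0.76, edgeR adjusted p = 0.0162), and Ctss, at 3140 ± 345 and 3709 ± 38.3 CPM, did not pass the test (edgeR adjusted p = 0.0872). The lower count of this list was 6 without Adam17-/- replicate 1 and 8 in the other 12 alternatives, and the higher count was 2 or 3 without WT replicate 1 or 2 and 2 with upper-quartile factors, library totals only and limma on log2(FPKM + 0.1).

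The coreceptors went both ways, with 1 of 6 lower, 2 higher and a median of 0.22. Ly96, which encodes MD-2, read 10.9 and 11.6 CPM in WT and 17.7, 11.8 and 16.04 CPM in Adam17-/- cocultures (log2 fold change 0.44, edgeR adjusted p = 0.0705). Cd180, a TLR-like receptor that pairs with the product of Ly86, fell from 37.5 ± 2.76 to 22.5 ± 1.26 CPM (-0.74, edgeR adjusted p = 0.0010). Lbp, the lipopolysaccharide carrier, rose from 2.23 ± 0.399 to 4.48 ± 0.503 CPM (1.00, edgeR adjusted p = 0.0075). Cd36, a scavenger receptor that delivers ligands to TLR2, rose from 28.2 ± 3.88 to 52.1 ± 23.2 CPM (0.88, edgeR adjusted p = 0.0477), with 1 of its Adam17-/- values (32.2 CPM) close to the higher WT value (31.0 CPM). In place of 2, 1 coreceptor was higher by DESeq2 and without Adam17-/- replicate 3. With library totals only, limma on log2(FPKM + 0.1) or no filter on low counts, 3 were higher. Ly86 and Hmgb1 had log2 fold changes of -0.03 and 0.00093 (edgeR adjusted p = 0.839 and 0.996).

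Of 24 adaptors and kinases, 3 were lower and 6 higher, with a median of -0.03. The shared adaptor Myd88 read 65.2 ± 3.43 and 67.4 ± 3.11 CPM (log2 fold change 0.05, edgeR adjusted p = 0.700), and its bridge Tirap 66.2 ± 1.15 and 64.4 ± 0.970 CPM (-0.04, edgeR adjusted p = 0.740). Ticam1, the TRIF gene used by TLR3 and TLR4, fell from 24.2 ± 5.71 to 16.03 ± 1.27 CPM (-0.59, edgeR adjusted p = 0.0149), while Ticam2 read 41.4 ± 5.38 and 47.2 ± 1.86 CPM (0.19, edgeR adjusted p = 0.185). Map3k8 (TPL2), the kinase that links TLRs to ERK, was the one gene of this list past a log2 fold change of 1. It read 19.8 and 18.3 CPM in WT and 43.2, 36.2 and 37.9 CPM in Adam17-/- cocultures (1.04 ± 0.111, edgeR adjusted p = 0.00046). The other genes that rose were Peli1 (0.44), Chuk (0.38), Ikbkb (0.29), Ikbkg (0.29) and Map3k7 (0.27), and Pik3ap1 (-0.58) and Irf5 (-0.31) fell with Ticam1. In place of 6, 2 genes were higher under the replicate block or without Adam17-/- replicate 1, and 3 without Adam17-/- replicate 2. Higher genes numbered 7 with upper-quartile factors and in both limma fits, and 8 with library totals only. In place of 3, 1 gene was lower in both limma fits and without Adam17-/- replicate 2, and 5 were lower without WT replicate 2.

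Of 11 tested inhibitors of the pathway, 3 were lower and 0 higher, with a median of -0.25. These were Inpp5d (SHIP1; -0.41), Tollip (-0.35) and Ptpn6 (SHP-1; -0.29), with edgeR adjusted p of 0.0059, 0.0104 and 0.0249. None of the 3 passed under the replicate block. The count was 1 with library totals only, in both limma fits and without Adam17-/- replicate 1 or 2, and 6 without WT replicate 2, which also left 1 inhibitor higher. Irak3 (-0.08) and Nfkbia (-0.15), which restrain IRAK signaling and NF-κB, did not pass (edgeR adjusted p = 0.440 and 0.197).

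Genes that TLR ligands induce moved in both directions. Of 20 tested, 8 were lower and 2 higher, with a median of -0.26. The lower count was 5 with library totals only, in both limma fits, under the replicate block and without any 1 of the Adam17-/- libraries, and 11 without WT replicate 2. Past a log2 fold change of 1, Tnf (-1.37) and Cxcl1 (-1.19) were lower and Il12b (2.57) and Nos2 (1.03) higher (edgeR adjusted p = 0.00056, 0.0054, 0.00084 and 0.00019). Il12b was low in WT cocultures, at 0.680 and 0.595 CPM, and its log2 fold change was 1.07 in limma on log2(FPKM + 1) (adjusted p = 0.00219). Il1b fell from 163 ± 9.02 to 108 ± 7.98 CPM (-0.60, edgeR adjusted p = 0.0016). The response genes Ier3 (0.10), Socs3 (0.10) and Icam1 (-0.22) did not pass (edgeR adjusted p = 0.341, 0.437 and 0.231).

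**Figure D4:**
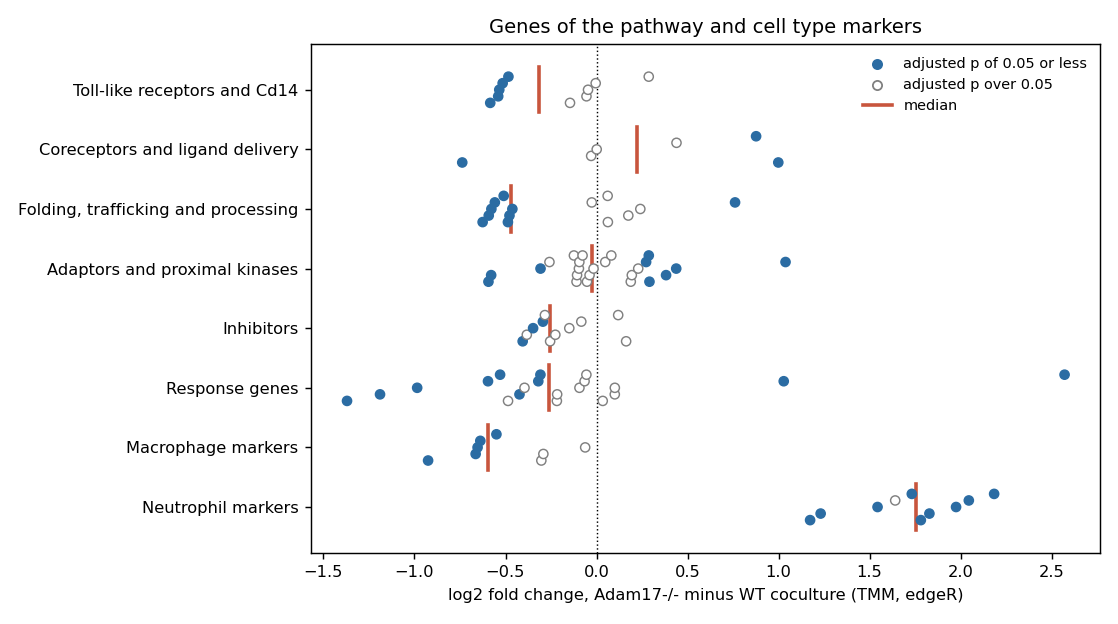
Log2 fold change (Adam17-/- minus WT coculture, edgeR) of every tested gene in the receptor set, the 5 pathway lists and the macrophage and neutrophil marker lists. Each point is a gene, filled where the adjusted p was 0.05 or less, and red lines are medians. The medians run from -0.59 for macrophage markers and -0.47 for folding, trafficking and processing genes to 1.76 for neutrophil markers.

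Cell type markers also differed between the groups, in both directions. Of the 8 macrophage markers, 5 were lower and 0 higher, and the median was -0.59 (log2). Their summed level was 27785 and 27141 CPM in WT and 17605, 18087 and 19484 CPM in Adam17-/- libraries. Lyz2, Itgam and Csf1r made up most of that sum. Of the 10 neutrophil markers, 9 were higher (median 1.76), and their sum rose from 463 and 369 CPM to 1381, 1443 and 1259 CPM. Monocyte markers were higher for 3 of 4 genes, with sums of 275 and 284 CPM against 350.2, 308 and 409.6 CPM. Dendritic cell markers (6.66 to 16.7 CPM) and eosinophil markers (4.71 to 18.6 CPM) were low and had 1 gene higher each. Markers of B cells reached at most 1.97 CPM and those of mast cells and basophils at most 0.789 CPM. In bulk RNA, fewer macrophages and less RNA of a gene per macrophage cannot be told apart. The part of neutrophil- and monocyte-marker RNA in the values of the 10 genes was not tested.

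The 10 genes were also set against the macrophage markers. Per 1000 CPM of summed macrophage markers, Cd14 stood at 23.6 and 20.1 CPM in WT and at 20.5, 24.1 and 22.7 CPM in Adam17-/- libraries. Tlr13 stood at 17.8 and 20.005 CPM against 19.8, 20.7 and 18.0 CPM, and Tlr2 at 10.6 and 11.8 CPM against 11.02, 13.65 and 10.5 CPM. The groups overlapped on this scale for the 5 genes that had fallen, and for the other 5 every Adam17-/- library was higher than both WT libraries. The divisor itself was lower in the Adam17-/- libraries and moves every gene up alike, and 82.3% of all genes tested were higher in this sense and 1.94% lower, so the outcome follows from the size of each gene's change and says nothing further about the 10 genes or the share of macrophages. The scale was added after the values had been seen, and Lyz2 and Itgam are also expressed by neutrophils and monocytes.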

How the data were processed

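RNA-seq libraries were made from poly-A RNA of BMDMs and sequenced by BGI. Per the labels, the authors' processing used Bowtie2, Bowtie, RSEM and DESeq2 on the mm10 build (versions not given in the sources used here). The study's methods also name HISAT for alignment and PoissonDis as a second test, so which aligner made the deposited counts is not settled. The authors deposited 1 table per sample, with estimated counts (RSEM's expected counts, not normalized) and FPKM (scaled to transcript length and library size) per RefSeq transcript. Here both were summed per Entrez gene (17057 gene IDs, 17015 with a symbol), the row without a gene ID (2 to 15 counts per library) was dropped, and counts were rounded. The main test was edgeR 4.0.16 (TMM, filterByExpr, quasi-likelihood, R 4.3.3) on 2 WT and 3 Adam17-/- libraries without covariates, with Benjamini-Hochberg adjustment over 12576 genes. An exact permutation test of 2 against 3 libraries cannot go below p = 0.1 and was not used. DESeq2 1.42.0, limma 3.58.1 on log2(FPKM + 0.1) and log2(FPKM + 1), other scalings and filters, a replicate block and each library left out gave 13 alternatives. The code was tested on simulated counts. TMM factors ran from 0.920 to 1.05. Replicate numbers were not taken as a pairing of the libraries.

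The members, pathway lists and markers were chosen with earlier results of these data known. All 10 members are described. From the lists, genes past an adjusted p of 0.05 and a log2 fold change of 1 in size, genes named for their role, and up to 4 genes with the highest mean CPM are named. Gene spans came from RefSeq and exons from GENCODE, both on GRCm38, and the annotations can differ in where a gene starts.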

Additional observations from a re-analysis of the deposited data

How the results depend on the processing

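Of the 13 alternatives, Cd14, Tlr9 and Tlr13 passed in all, Tlr2 in 12, and Tlr5 and Tlr3 in 6 each. The count of lower genes among the 10 was 5 and became 4 with library totals only, both limma fits and the replicate block, and 3 to 7 with a library left out (3 without Adam17-/- replicate 1). The count of higher genes was 0 and became 1 (Tlr3) with upper-quartile factors, library totals only, both limma fits or a minimum of 10 counts in every sample, and 0 to 2 with a library left out (2 without WT replicate 2). Over all genes, 2114 were lower and 1869 higher, against 1077 and 3019 with library totals only, 1016 and 2927 with limma on log2(FPKM + 0.1), and 1011 and 2867 with a pseudocount of 1. The median over all genes stood at 0.16, 0.15 and 0.11 in those 3 fits. With a library left out, the counts over all genes ran from 926 to 2940 lower and from 1089 to 2460 higher (926 and 1089 without Adam17-/- replicate 1, 1168 and 1240 without replicate 2, 1237 and 1208 without replicate 3), and those of the pathway lists from 15 to 31 lower (23 with all libraries) and from 7 to 16 higher (11 with all libraries), with 15 and 7 without Adam17-/- replicate 1. The cause of these shifts was not tested.

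With the replicate number as a block, 1126 genes were lower and 1216 higher, the pathway lists held 7 higher genes, and Tlr5 missed the threshold (edgeR adjusted p = 0.0512). Numbers 1 and 2 occur in both groups, but the correlations of their deviations were -0.12 and -0.05, so no pairing of the libraries is taken from them.

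The 4 genes near 0 changed sign. With upper-quartile factors, library totals only, limma on log2(FPKM + 0.1) and limma on log2(FPKM + 1), in that order, Tlr1 was at 0.0015, 0.0935, 0.104 and 0.102, Tlr4 at 0.0098, 0.0916, 0.145 and 0.140, and Tlr6 at 0.0524, 0.142, 0.141 and 0.134. Tlr8 was at 0.0276 and 0.0269 in the limma fits. Tlr4 was at 0.0158 under the block, and Tlr6 at 0.0089 with at least 10 counts in every sample. With a library left out, Tlr1 ranged from -0.16 to 0.0464, Tlr4 from -0.37 to 0.36, Tlr6 from -0.0252 to 0.0439 and Tlr8 from -0.35 to 0.0865. The lowest count of the 10 genes in a library was 221 (Tlr5).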
